A study of Homo sapiens with 6 samples.

Results

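Wide peaks of H3K4me3 that lie far from the start of protein-coding gene records were described in control OCI-AML3 cells. A record gives 1 start per gene, and further starts inside a gene did not exclude a peak. They were chosen by the measured width and the position of the peaks in the control (sgNeg) list. A peak on chromosomes 1 to 22 or X was taken if it was at least 800 bp wide and if no start of a protein-coding gene record lay within 5 kb of either edge. Of 353578 peaks, 11582 were wide, and 5792 of these met the rule and are called distal regions. The other 5790 wide peaks had a coding start within 5 kb and are called promoter-near peaks. No peaks of the list overlapped each other, so that each region is 1 peak. Because sgNeg width and position chose the regions, their sgNeg width and fold enrichment are a description only.

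The human leukemia line OCI-AML3 was established from acute myeloid leukemia and has mutant NPM1 (mtNPM1) and mutant DNMT3A, both heterozygous, and a homozygous NRAS mutation, and the groups share this background. The sgNeg cells received a control guide for CRISPR-Cas9, and the sgNpm1A cells a guide directed at mtNPM1. Culture lasted 3 days by the labels. The text of the paper gives a longer time. ChIP with Tn5 tagmentation gave 1 library for each guide and each of H3K4me3 and H3K27Ac, hence 4 peak lists. A further 2 samples, the inputs, were not used here. The share of edited cells is not given in the sources used here, and the cells were not a selected clone as far as the labels say. With 1 library per group there was no spread between replicates and no test between sgNeg and sgNpm1A was possible. Intervals below are 95% Wilson intervals and cover counting error only.

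H3K4me3, trimethylation of lysine 4 of histone H3, is laid down by the SET1 and MLL methyltransferase complexes and is concentrated at active promoters, above all at those rich in CG pairs. Active genes of long noncoding RNAs, hosts of microRNAs and genes that carry small nucleolar RNAs (snoRNAs) in their introns can carry the mark at their starts as well, and many coding genes have further start sites inside the gene. Enhancers carry more monomethylation than trimethylation of this lysine, whereas H3K27Ac, acetylation of lysine 27, is found at both active enhancers and active promoters.

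The promoters of 4 long noncoding RNA genes whose start lay inside a distal region are shown, because these regions were among the 15 with a noncoding start that had the highest fold enrichment and none of the 4 had a sgNpm1A peak. Sequences are from RefSeq on GRCh38.p14, from 250 bases before to 50 bases after the start, 5′ to 3′ on the strand of the gene. Capitals mark the motifs that were searched on both strands, namely the GC box GGGCGG, the box bound by NF-Y, CCAAT, the core of the TATA box, TATAAA, a core bound by ETS factors, CGGAAG, the cyclic AMP response element TGACGTCA, and a stretch of the NRF1 site, TGCGCA. No motif holds another. CHASERR is a long noncoding RNA transcribed beside CHD2 (chr15:92883046-92883345, plus strand), MIR17HG is the host gene of the miR-17-92 cluster (chr13:91347437-91347736, plus strand), SNHG16 is a snoRNA host gene (chr17:76557514-76557813, plus strand), and LOC105371901 lies inside the SEC14L1 record (chr17:77141390-77141689, minus strand).
CHASERR: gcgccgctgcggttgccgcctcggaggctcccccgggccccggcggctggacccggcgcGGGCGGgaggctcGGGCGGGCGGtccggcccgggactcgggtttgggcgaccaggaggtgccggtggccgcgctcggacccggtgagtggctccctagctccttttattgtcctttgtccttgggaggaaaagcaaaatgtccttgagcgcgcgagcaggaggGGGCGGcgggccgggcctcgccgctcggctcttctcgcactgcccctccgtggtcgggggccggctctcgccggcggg
MIR17HG: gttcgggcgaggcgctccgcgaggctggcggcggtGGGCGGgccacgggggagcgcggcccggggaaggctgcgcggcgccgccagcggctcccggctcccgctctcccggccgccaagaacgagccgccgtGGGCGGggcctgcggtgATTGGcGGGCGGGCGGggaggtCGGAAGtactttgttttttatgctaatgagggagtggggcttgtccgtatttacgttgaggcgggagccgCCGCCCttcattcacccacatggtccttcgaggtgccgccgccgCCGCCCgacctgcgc
SNHG16: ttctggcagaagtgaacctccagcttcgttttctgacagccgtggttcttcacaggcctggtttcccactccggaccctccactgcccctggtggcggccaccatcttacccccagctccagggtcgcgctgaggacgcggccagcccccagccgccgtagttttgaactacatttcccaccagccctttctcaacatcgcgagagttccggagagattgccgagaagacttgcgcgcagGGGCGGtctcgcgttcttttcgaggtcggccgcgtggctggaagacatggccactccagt
LOC105371901: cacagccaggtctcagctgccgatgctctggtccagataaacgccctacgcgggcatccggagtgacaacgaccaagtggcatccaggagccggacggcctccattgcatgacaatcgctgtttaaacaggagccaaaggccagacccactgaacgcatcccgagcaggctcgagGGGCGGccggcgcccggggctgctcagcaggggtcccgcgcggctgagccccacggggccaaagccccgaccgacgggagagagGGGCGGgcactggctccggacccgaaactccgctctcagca
For contrast, the promoters of the 2 long noncoding RNA genes with the highest fold enrichment among those whose region did have a sgNpm1A peak are given, chosen after their values were seen. They are LOC105372727 (chr20:64143591-64143890, minus strand) and LOC105374715 (chr5:33049354-33049653, minus strand).
LOC105372727: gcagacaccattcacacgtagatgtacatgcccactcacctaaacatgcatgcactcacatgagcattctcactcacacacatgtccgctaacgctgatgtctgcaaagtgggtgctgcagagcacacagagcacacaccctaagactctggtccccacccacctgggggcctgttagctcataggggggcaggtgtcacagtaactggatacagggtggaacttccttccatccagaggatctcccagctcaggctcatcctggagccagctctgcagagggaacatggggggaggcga
LOC105374715: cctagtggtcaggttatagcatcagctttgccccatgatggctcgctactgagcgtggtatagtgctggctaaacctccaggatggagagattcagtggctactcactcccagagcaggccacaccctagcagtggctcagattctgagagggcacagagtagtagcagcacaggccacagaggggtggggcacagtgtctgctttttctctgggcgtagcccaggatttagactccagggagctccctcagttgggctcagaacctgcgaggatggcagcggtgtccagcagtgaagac

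The first 4 promoters held 40, 42, 23 and 27 CG pairs, in the order CHASERR, MIR17HG, SNHG16 and LOC105371901, and each had at least 1 GGGCGG. MIR17HG had 8 motif matches, among them 1 of the NF-Y box on the other strand and 1 of the ETS core. LOC105372727 and LOC105374715 held 4 and 5 CG pairs and none of the motifs. This difference ran through the reference promoters of long noncoding RNA genes that start in a distal region. The 36 promoters in regions without a sgNpm1A peak had a median of 20.5 CG pairs (quartiles 13 and 33.25), and 47.2% held the GC box. The 27 promoters in regions with a sgNpm1A peak had a median of 7 (quartiles 4 and 9), and 7.41% held it. These sets also differed in position. Most regions with a long noncoding RNA start and a sgNpm1A peak lay in the stretches of dense peaks described below. Most of those without such a peak did not, and several of them also held a further start of a coding gene. The part of these differences in the contrast was not tested. Among all 12829 long noncoding RNA promoters of the table the median was 5 and the share with the GC box was 25.6%, and among all 34961 promoters of any gene these were 14 and 45.0%. The NF-Y box was present in 30.6% and 22.2% of the promoters in regions without and with a sgNpm1A peak, against 34.6% of all promoters, and the ETS core in 22.2% and 7.41%, against 19.4%. The TATA box core was present in 2.78% and 14.8%, against 11.5% of all promoters, and the NRF1 letters in 5.56% and 3.70%, against 8.25%. The cyclic AMP response element was in none of the 63, and in 1.85% of all promoters. The 118 promoters at further starts of coding genes inside distal regions had a median of 31 CG pairs, and 68.6% held the GC box.

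MicroRNA genes formed a second group with known products. Of 17 microRNA genes that start inside a distal region, 9 lay in a region with a sgNpm1A peak and 8 in a region without one. Of all distal regions 82.9% had such a peak, and of the 113 with any noncoding or pseudogene start 49.6%, which is close to the split of the microRNA genes. The mature sequences of 4 of the 8 are shown, because they are products well described in cancer and development, chosen after their values were seen. The seed, bases 2 to 8, is in capitals, and sequences are from RefSeq on GRCh38.p14. MIR130B and MIR301B lie together under 1 region on chromosome 22 and their 3′ products share the seed AGUGCAA.
hsa-miR-130b-3p: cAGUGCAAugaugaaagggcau
hsa-miR-301b-3p: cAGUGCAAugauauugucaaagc
hsa-let-7i-5p: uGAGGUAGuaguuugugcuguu
hsa-miR-193a-3p: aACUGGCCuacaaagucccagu
The region over MIR130B and MIR301B (chr22:21652032-21653479) had a sgNeg fold enrichment of 7.90, the region over MIRLET7I and LINC01465 (chr12:62603312-62604250) 7.28, and the region over MIR193A (chr17:31559257-31560573) 7.07. None had a sgNpm1A H3K4me3 peak. H3K27Ac within 1 kb of the start was 9.19 at MIRLET7I, 4.33 at MIR193A and 3.53 at MIR301B in sgNeg. In sgNpm1A no H3K27Ac peak was listed at MIRLET7I or MIR193A, and MIR301B had 3.07. No distal region lay over the record of a microRNA gene from a list of 22 known in hematopoiesis, among them MIR223, MIR155 and MIR142. Of these records, 16 lay over 5 kb from every coding start. The starts of host genes were not part of this check. MIR17 is on the list, and the start of its host gene MIR17HG lay in a distal region.

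The question for the distal regions as a whole was whether the same positions carried a H3K4me3 peak after the guide RNA against mtNPM1. The sgNpm1A list was shorter, with 106629 peaks, and its background pileup, the number of fragments expected over a base, was 2.93 against 3.81 in sgNeg. Fold enrichment is relative to the background of its own list. Of the 5792 distal regions, 4801 shared 1 bp or more with a sgNpm1A peak (82.9%, 81.9 to 83.8). Among all sgNeg peaks this share was 22.6%, and among the promoter-near peaks, chosen by the same width, it was 12.7% (11.8 to 13.5). The narrower peaks far from coding starts stood at 22.4%. Where a distal region was overlapped, a median of 76.4% of its bases lay under sgNpm1A peaks, and the median sgNpm1A fold enrichment there was 4.58 (quartiles 4.07 and 5.34). Seen from the other list, 5061 of the sgNpm1A peaks, or 4.75%, lay over a distal region. By the same width and distance, the sgNpm1A list itself held 12362 distal peaks, of which 92.4% lay over a sgNeg peak of any width, and 1305 promoter-near peaks. In sgNeg the distal and promoter-near kinds were alike in number. With 1 library per guide, an effect of the guide on either kind cannot be told apart from a difference between the libraries. A given width need not mean the same in both lists, because the narrowest peak was 245 bp in sgNpm1A and 110 bp in sgNeg.

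The distal regions were lower and slightly narrower than promoter-near peaks in sgNeg. Their fold enrichment had a median of 4.78 (quartiles 4.16 and 5.82, range 3.12 to 42.0), which is 22 fragments at the summit, and their median width was 1005 bp. Promoter-near peaks had a median fold enrichment of 8.11, or 38 fragments, and a median width of 1126 bp. The shares with a sgNpm1A peak were also set side by side at like sgNeg fold enrichment. At a sgNeg fold enrichment of 6 to 8, 78.0% of 833 distal regions had a sgNpm1A peak against 6.65% of 1714 promoter-near peaks. At 10 or more, 129 of 215 distal regions (53.3% to 66.3%) and 4.82% of 1349 promoter-near peaks had one. Below 4 they were nearer to each other, with 77.7% of 979 and 60.7% of 150. All 237 distal regions of 2 kb or wider had a share of 84.4% (79.2 to 88.5).

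**Figure D1:**
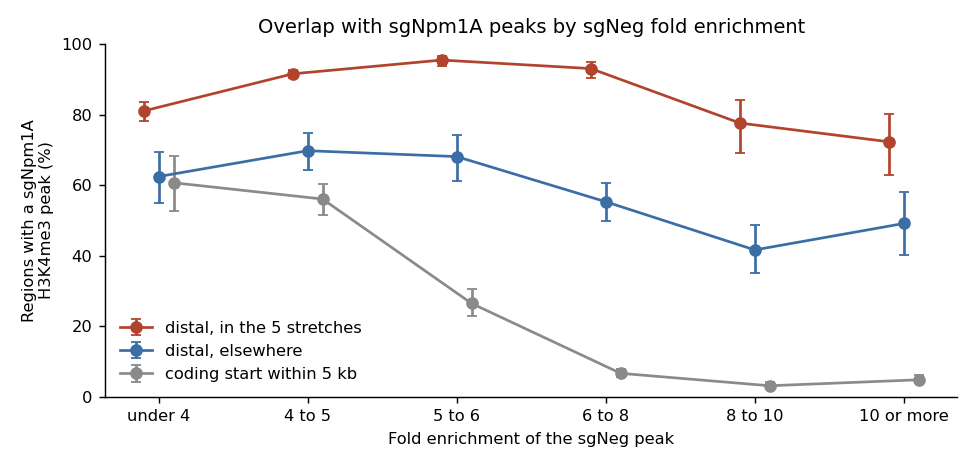
Share of wide sgNeg H3K4me3 peaks with a sgNpm1A H3K4me3 peak (percent, y axis) by steps of sgNeg fold enrichment (x axis), for distal regions in the 5 stretches of dense peaks described in the text, distal regions elsewhere and promoter-near peaks. Bars are 95% Wilson intervals, and at 6 to 8 the shares were 93.0%, 55.3% and 6.65%.

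The share with a sgNpm1A peak changed with the distance to a coding start and not at the limit of 5 kb itself. It was 7.84% of 1122 wide peaks that held a coding start, 4.51% of 3858 with a start within 1 kb, 48.8% at 1 to 3 kb and 73.2% at 3 to 5 kb. Just past the limit, at 5 to 7 kb, it was 76.4% of 271 regions, and beyond 50 kb it was 86.8% of 2984. The median distance of a distal region from a coding start was 52.8 kb (quartiles 19.7 and 150.4). At the width limit, the 1191 distal peaks of 750 bp to just under the limit had a median fold enrichment of 4.37 and a share of 79.1%, and the 911 regions up to 50 bp wider had 4.58 and 78.8%.

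**Figure D2:**
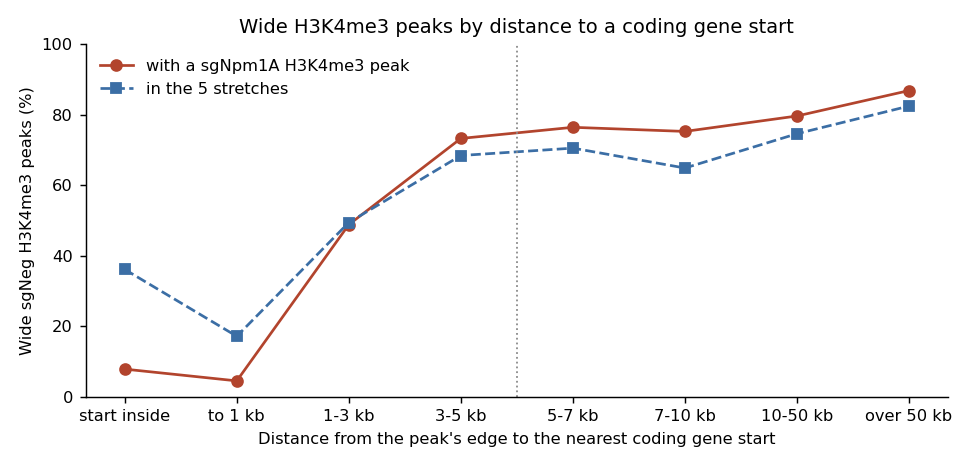
Wide sgNeg H3K4me3 peaks by the distance from their edge to the nearest coding gene start (x axis), with the percent that had a sgNpm1A H3K4me3 peak (circles) and the percent that lay in the 5 stretches of dense peaks (squares). The dotted line is the limit of 5 kb, and both shares were already at 73.2% and 68.4% at 3 to 5 kb.

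The distal regions were unevenly spread over the chromosomes. Chromosome 5 held 1737 of them, or 9.58 per Mb, chromosome 8 held 1197 (8.25 per Mb), chromosome 1 held 920 (3.70), chromosome 17 held 458 (5.50) and chromosome 7 held 435 (2.73). On the other autosomes the density was between 0.175 per Mb on chromosome 13 and 1.59 per Mb on chromosomes 19 and 21, and the X chromosome had 8 regions, none with a sgNpm1A peak. Within the 5 leading chromosomes the regions lay in stretches, which were delimited after their positions had been seen: the long arm of chromosome 1 from its first region at chr1:145876064-145877039, chromosome 5 up to 50 Mb, chromosome 7 from 90 Mb, all of chromosome 8, and chromosome 17 from 60 Mb. These stretches are 12.9% of the length up to the last peaks and held 4508 regions, or 77.8%. The first 50 Mb of chromosome 5 held 1686 regions, 33.7 per Mb, and the rest of that chromosome 0.388 per Mb. The end of its short arm was the densest, with 507 regions in the first 5 Mb. In contrast, 194 of 599 windows of 5 Mb held none.

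Other peaks were denser in the same stretches. All sgNeg peaks stood at 385 per Mb in the stretches and at 77.0 per Mb elsewhere, sgNpm1A peaks at 134 and 20.5, and promoter-near peaks at 3.90 and 1.62. Distal regions stood at 11.5 and 0.487. The deposited fold enrichment used 1 constant background over each H3K4me3 list, and its part in this density was not tested. The share with a sgNpm1A peak was 89.8% (88.9 to 90.6) of the distal regions in the stretches and 58.6% (55.9 to 61.3) of the 1284 elsewhere. For promoter-near peaks these were 39.4% and 3.10%. The order of distal above promoter-near held in both parts of the genome.

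**Figure D3:**
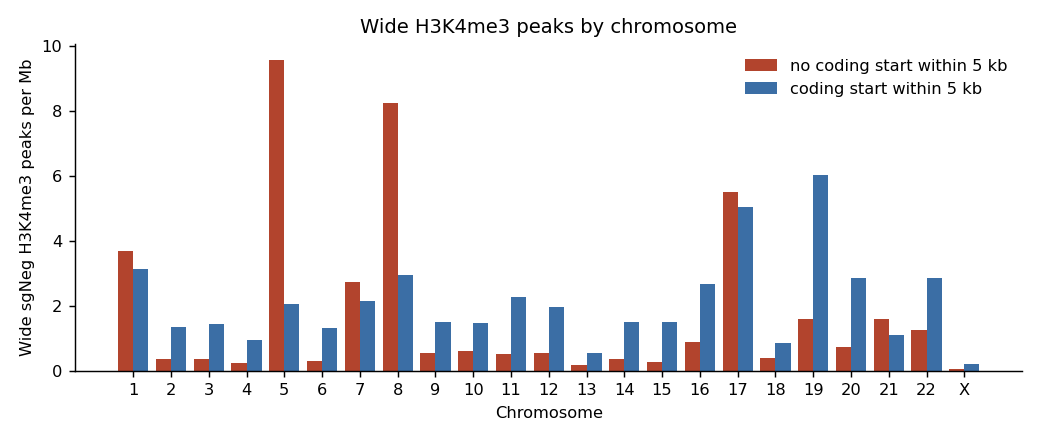
Wide sgNeg H3K4me3 peaks per Mb (y axis) on each chromosome (x axis), with distal regions in red and promoter-near peaks in blue. Distal regions reached 9.58 per Mb on chromosome 5 and 8.25 on chromosome 8, whereas promoter-near peaks were densest on chromosome 19, at 6.03 per Mb.

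Regions also stood close together. With gaps of at most 5 kb, 37.6% of the regions belonged to 784 groups of 2 or more. The group with most regions was inside SLC12A7, the gene of the potassium-chloride cotransporter KCC4, where 22 regions lay over 66.4 kb (chr5:1065258-1131642) and 21 of them had a sgNpm1A peak. At SLC6A3, the dopamine transporter gene, 17 regions lay over 65.0 kb (chr5:1374251-1439216), all with a sgNpm1A peak. A further 14 lay over SLC6A18 and TERT, the gene of the telomerase catalytic subunit (chr5:1238676-1274741), away from the TERT start by the rule. Outside the stretches, groups of 21 and 13 regions lay on the short-arm side of chromosome 21 (chr21:10672039-10738718 and chr21:7916769-7958202), where no gene record of the table was present, and all had a sgNpm1A peak. Within both groups some regions lay under the same sgNpm1A peak (chr21:10699832-10738583 and chr21:7929466-7958321), so that they are not separate overlaps. Of the regions in these 5 groups, only 1, in SLC12A7, was without a sgNpm1A peak. The share with one over all distal regions was 92.9% in the first 50 Mb of chromosome 5 and 87.8% on chromosome 21.

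By position, 3078 regions (53.1%, 51.9 to 54.4) overlapped a coding gene record, against 52.6% of all sgNeg peaks, and 1992 (34.4%) lay outside every gene record, against 34.9%. A noncoding gene or pseudogene record lay under 1028 regions (17.7%, 16.8 to 18.8), against 16.8% of all peaks. By kind, 939 regions (16.2%) lay over a long noncoding RNA record, 79 (1.36%) over a pseudogene and 29 (0.501%) over a small RNA gene, against 15.6%, 1.26% and 0.109% of all peaks. In these pooled shares, apart from small RNA genes, the regions were close to the list as a whole. The stretches held 77.8% of the regions and 42.6% of all peaks, and within each part the coding and outside shares differed more. A coding gene record lay under 50.4% of regions and 47.2% of all peaks in the stretches, and under 62.8% and 56.6% elsewhere. Outside every record lay 36.8% and 39.1% in the stretches, and 26.0% and 31.9% elsewhere. A start of a noncoding gene or pseudogene lay inside 113 regions (1.95%, 1.63 to 2.34), against 0.484% of all peaks, most of which are narrower, and 6.55% of promoter-near peaks. In 101 regions (1.74%) a further start of a coding gene lay inside, as listed in the RefSeq promoter table, against 22.2% of promoter-near peaks.

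The share with a sgNpm1A peak differed between these positions. It was 8.91% (4.76 to 16.1) of the 101 regions with a further coding start. Of the 101 regions that held a noncoding or pseudogene start and no further coding start it was 55.4% (45.7 to 64.8). It was 81.3% of the 2934 regions inside a coding gene without a start, 83.4% of the 664 inside a noncoding record without a start, and 90.3% (88.9 to 91.5) of the 1992 outside all records. Outside the 5 stretches the same order was seen, from 2.47% of 81 and 28.6% of 42 to 54.4% of 704, 62.6% of 123 and 83.5% of 334. Inside the stretches the shares were 35.0% of 20, 74.6% of 59, 89.7%, 88.2% and 91.6%. Regions with a further coding start were also higher in sgNeg, with a median fold enrichment of 7.28, against 5.62 with a noncoding start and 4.78 in each of the other positions.

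**Figure D4:**
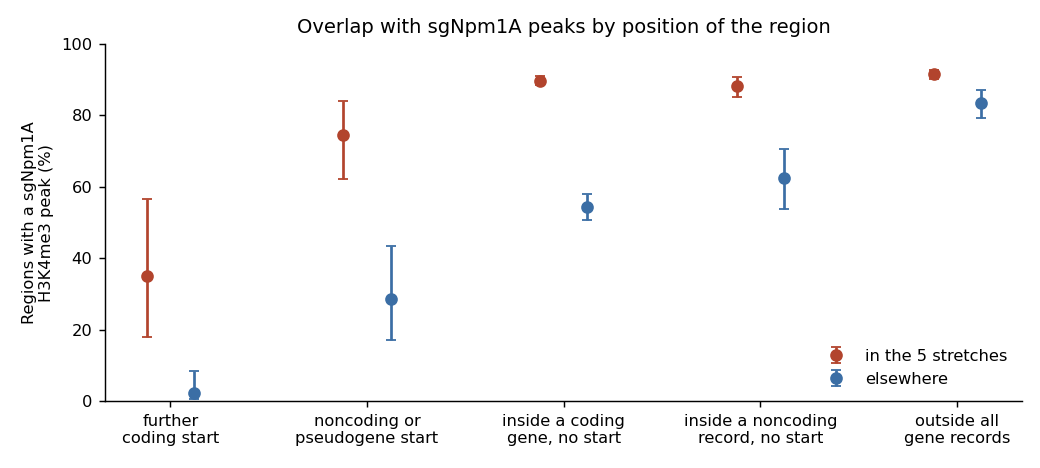
Share of distal regions with a sgNpm1A H3K4me3 peak (percent, y axis) by what the region lay over (x axis), in the 5 stretches of dense peaks (red) and elsewhere (blue), with 95% Wilson intervals. Regions with a further coding start stood at 35.0% and 2.47%, and regions outside all gene records at 91.6% and 83.5%.

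Among the regions with a further coding start, the 12 with the highest fold enrichment all lacked a sgNpm1A peak. This is near the share of the whole kind, as only 8.91% of all 101 such regions had one. The region at KANSL1, which codes for a scaffold subunit of a histone acetyltransferase complex, and at the start of KANSL1-AS1 was 2744 bp wide (chr17:46191305-46194048) with a fold enrichment of 15.0, or 71 fragments. KLF16, a zinc finger transcription factor gene (chr19:1860250-1863603), and LARP1, an RNA-binding regulator of the translation of ribosomal protein mRNAs (chr5:154755527-154757768), had 13.7 each. SRPK2, a kinase of splicing factors, and RTN4, a reticulon of the endoplasmic reticulum, had 12.5. SET, a histone chaperone and inhibitor of protein phosphatase 2A, had 12.3, DNAJB1, an HSP40 co-chaperone, 11.9, and ACLY, ATP citrate lyase, 11.2. CDKN2C, the p18 inhibitor of CDK4 and CDK6 (chr1:50968832-50971467), had 10.6. These regions lay 5.51 kb (SET) to 87.4 kb (RTN4) from the nearest start of a coding gene record.

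Inside coding genes the remaining high regions were of both kinds. At TNRC6C, a partner of Argonaute proteins (chr17:78053920-78055108), the sgNeg fold enrichment was 16.2 and the sgNpm1A fold enrichment 9.67. SLC26A5, the gene of prestin (chr7:103380620-103382190), had 15.6 and 10.9, and PTPRN2, a phosphatase-like protein of secretory granules (chr7:158261426-158263891), had 15.4 and 6.61. LMNA, the gene of lamins A and C (chr1:156114676-156116603), had 16.0, and SLC9A3, a sodium-proton exchanger gene (chr5:473248-474165), had 15.6, and neither had a sgNpm1A peak. Regions were spread over 1385 coding genes, 914 of which held 1 region, and lay at a median of 48.1 kb from the start of the gene (quartiles 18.6 and 133.5). The 41 genes with 10 or more were led by CTNND2, the gene of delta-catenin, with 56 regions in a record of 933 kb, 54 of them with a sgNpm1A peak. TRAPPC9 and RBFOX3 followed with 44 each, of which 41 and 38 had one, then PTPRN2 with 38 and 31, and TRIO with 37 and 35. All of these lie in the stretches, where the share over all distal regions was 92.9% on chromosome 5 (CTNND2 and TRIO), 89.4% on chromosome 8 (TRAPPC9), 86.6% on chromosome 17 (RBFOX3) and 87.0% on chromosome 7 (PTPRN2), so that these counts are read as a description only. Per length the densest of the 20 genes with most regions was SLC12A7, at 27.5 per 100 kb, followed by ADGRB1 at 19.9. CTNND2 and RBFOX3 are known for expression in neurons, and the rule used no expression.

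Noncoding starts were found in 113 regions and belonged to 130 genes. The 67 regions with a long noncoding RNA start had a sgNpm1A peak in 41.8% of cases, the 23 with a pseudogene start in 78.3% and the 26 with a small RNA start in 34.6%. Of the 14 snoRNA host genes that lay under a distal region, 13 had no sgNpm1A peak there, and the exception was SNHG28, whereas 82.9% of all distal regions had one. These genes were taken by overlap of the record, and only SNHG16 had its own start inside the region by the starts used here. Of the 32 snoRNA host genes found in the table, 14 had a record over 5 kb from every coding start. The fold enrichment of the host gene regions was 4.99 to 13.7 with a median of 9.05. Most of these regions lay outside the 5 stretches, where 58.6% of all distal regions had a sgNpm1A peak. At a fold enrichment of 8 to 10 the share there was 41.6%, and 3.13% among promoter-near peaks of the whole list. For regions there with a noncoding start and no further coding start it was 28.6%. SNHG12 with SNORA61, SNORA44 and SNORA16A (chr1:28579683-28581820) and SNHG32 with SNORD52 (chr6:31835873-31838698) had 13.7 each. SNHG16 had 11.9, SNHG29 with SNORD49A, SNORD49B and SNORD65 had 11.6, SNHG25 had 10.8, SNHG11 9.78 and SNHG5 with SNORD50A and SNORD50B 9.15. SnoRNAs guide the modification of ribosomal RNA in the nucleolus, and their host genes are transcribed from promoters like those of ribosomal protein genes.

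Long noncoding RNAs known in blood or cancer were under 16 regions, from 8 of 43 genes found, 25 of which had a record over 5 kb from every coding start. A sgNpm1A peak was present at 6 of the 16, against 82.9% of all distal regions, and 7 of the 16 lay over 1 gene, PVT1. Only MIR17HG had its own start inside a region by the starts used here. NEAT1, the scaffold RNA of paraspeckles, had a region of 2386 bp with a fold enrichment of 12.5 (chr11:65422955-65425340). MALAT1, an RNA of nuclear speckles, had a region of 3823 bp with 9.98 (chr11:65499700-65503522) and a second with 4.78. MIR17HG had 10.2, DLEU2, which hosts the miR-15a and miR-16-1 genes, 4.99, and KCNQ1OT1, an imprinted antisense RNA, 4.99. None of these 6 regions had a sgNpm1A peak. They lay outside the stretches, where 58.6% of all distal regions had one. LINC-PINT had 1 region without (6.86) and 1 with a sgNpm1A peak (5.41 in sgNeg and 4.83 in sgNpm1A). PVT1, the noncoding neighbour of MYC, held 7 regions in a stretch of dense peaks. The region nearest to its start had a fold enrichment of 7.49 and no sgNpm1A peak, and the other 6 had 3.54 to 4.37 in sgNeg, 4 of them with a sgNpm1A peak. The region in CCDC26, another noncoding gene of that chromosome, had 5.20 in sgNeg and 4.58 in sgNpm1A. None of the 402 small nuclear and polymerase III RNA records over 5 kb from a coding start lay under a region. That list held no pseudogenes and no 5S RNA records. Outside it, the pseudogenes RNU5E-2P (8.53 and no sgNpm1A peak), RNA5SP76 (4.37) and RNA5SP79 (5.62), the last pair with a sgNpm1A peak, started inside a region.

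Further noncoding starts without a sgNpm1A peak were at LRP5L (11.2) and OGFRP1 (11.02), both listed as pseudogenes, at CHASERR (10.4) and at LOC105371901 (12.5). The SNHG25 region given above (10.8) held the starts of SNORD104 and SNORA50C. Among the long noncoding RNA records with most regions, LINC02112 held 27, of which 25 had a sgNpm1A peak, LOC105374618 held 19 and 17, and LINC01019 held 10 and 10, with a highest sgNeg fold enrichment of 20.4 and a sgNpm1A value of 10.9 at that region (chr5:3483554-3484874). These 3 records lie in the first 50 Mb of chromosome 5, where 92.9% of all distal regions had a sgNpm1A peak.

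The highest fold enrichments were at pseudogenes of mitochondrial genes, copies of mitochondrial DNA in the nuclear genome. On chromosome 1 the region over MTND1P23, MTND2P28 and MTCO1P12 (chr1:629092-632427) had 42.0, or 201 fragments, and its neighbour over MTATP6P1 and MTCO3P12 (chr1:633893-634920) had 40.4. Both were covered by 1 sgNpm1A peak with 196.9, or 773 fragments. On chromosome 5, inside PCBD2, the regions over MTND5P11 and MTND4P12 had 24.5 and 22.5, and both were covered by 1 sgNpm1A peak with 66.6. In contrast to these, MTCYBP14 had 4.58 in sgNeg and 3.56 in sgNpm1A. In all, 5 regions lay over such pseudogenes and all 5 had a sgNpm1A peak, against 82.9% of all distal regions. Sequences of this kind are nearly identical to mitochondrial DNA, reads of both cannot be told apart in these lists, and whether the signal came from the nucleus was not tested.

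Of the 8 regions outside every gene record with the highest fold enrichment, all had a sgNpm1A peak, against 90.3% of all 1992 such regions. The highest was at chr7:155957550-155960136 with 23.7 in sgNeg and 8.39 in sgNpm1A, 145.1 kb from a coding start. The region at chr4:3814971-3816086 had 20.2 and 5.60, and that at chr10:17914200-17915072 had 17.1 and 6.36. At chr21:9246116-9249208 the values were 19.8 and 21.4, at chr9:63823222-63824125 19.1 and 15.0, and at chr20:31068023-31069237 17.1 and 14.0. The inputs were not used here, and whether these regions also stood high in them was not tested. The widest region of all was also outside gene records, 8052 bp at chr7:99581931-99589982 with 7.70 in sgNeg and 8.39 in sgNpm1A. Of the 12 widest, 8 had a sgNpm1A peak, against 84.4% of the 237 regions of 2 kb or wider. The 4 without one were over LOC105377845, MIRLET7BHG, RENO1 (14.6) and LOC124905135 (10.8). MIRLET7BHG is the host gene of 2 let-7 family members, and its region was 4389 bp wide with 7.49 (chr22:46085022-46089410).

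H3K27Ac was compared at the noncoding genes whose start lay in a distal region. The H3K27Ac lists are on GRCh37, and the H3K4me3 lists on GRCh38, so that no position was carried over and genes were joined by name, for 71 of the 130. The file names of the H3K27Ac lists carry another cell tag than those of the H3K4me3 lists, with no meaning stated, while all labels name OCI-AML3. A sgNeg H3K27Ac peak lay within 1 kb of the start of 70 of the 71 genes (98.6%, 92.4 to 99.8), against 34.9% of 18802 noncoding genes joined, and a sgNpm1A H3K27Ac peak at 49 (69.0%, 57.5 to 78.6), against 27.9%. For long noncoding RNA genes alone, all 35 had a sgNeg H3K27Ac peak, against 53.5% of 5108 joined. A sgNpm1A H3K27Ac peak was present at 20 of the 35 (57.1%), against 33.7%. The 71 genes divided by their H3K4me3 region. Where the region had no sgNpm1A H3K4me3 peak, all 36 genes had a sgNeg H3K27Ac peak and 14 (38.9%, 24.8 to 55.1) had a sgNpm1A H3K27Ac peak. Where it had one, 34 of 35 had a sgNeg H3K27Ac peak and all 35 had a sgNpm1A H3K27Ac peak. The genes were counted singly although 8 of them lay on 3 shared sgNeg H3K27Ac peaks, so that these intervals are too narrow, and the split was not tested.

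Among the 36 genes, the sgNeg H3K27Ac fold enrichment was 2.67 to 13.5 with a median of 4.98. For the 14 with a sgNpm1A H3K27Ac peak, the sgNpm1A value was 2.66 to 3.48, and sgNeg was higher in 12. ANXA2R-OT1 had 13.5 in sgNeg and no sgNpm1A peak, MIR17HG 9.22 and none, SNHG16 5.66 and none, and CHASERR 2.79 and none. KANSL1-AS1 had 10.2 in sgNeg and 3.35 in sgNpm1A. Among the 35 genes in regions with both H3K4me3 peaks, the sgNeg H3K27Ac fold enrichment had a median of 3.25 and the sgNpm1A value one of 3.56, and sgNeg was higher in 11 of 34 with both. LINC01019 had 3.12 and 3.90, MIR4277 3.67 and 4.79, and MTND2P28 14.9 and 15.5.

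**Figure D5:**
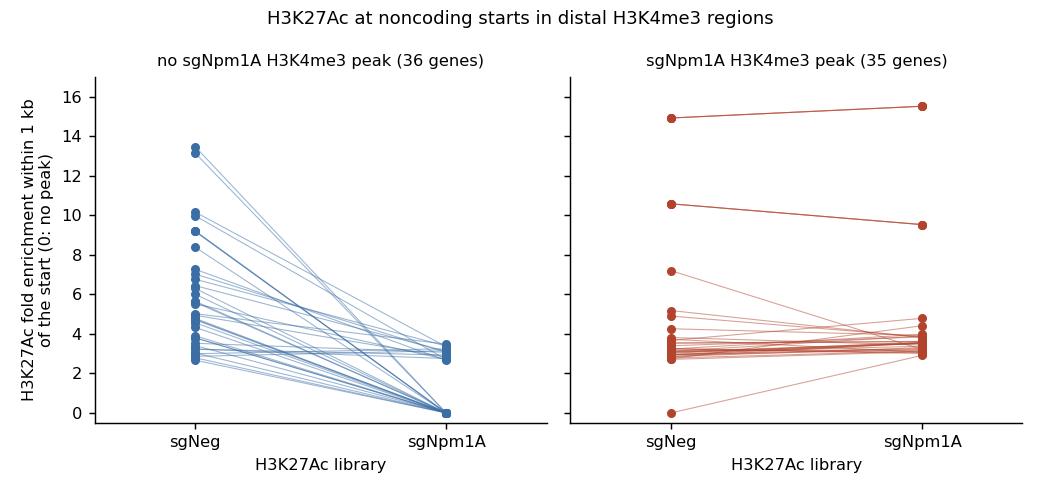
H3K27Ac fold enrichment within 1 kb of the start (y axis, 0 where no peak was listed) in the sgNeg and sgNpm1A libraries for noncoding genes that start in a distal H3K4me3 region, joined by a line per gene. Of the 36 genes on the left, in regions without a sgNpm1A H3K4me3 peak, 14 had a sgNpm1A H3K27Ac peak, and of the 35 on the right all had one.

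A missing sgNpm1A peak says only that none was listed, since the lowest sgNpm1A peak had 10 fragments and a weaker one would not be seen. The labelled cell type was checked by a sgNeg H3K4me3 peak within 1 kb of the start. Of 8 myeloid genes 6 had one, at least 800 bp wide at 4 (SPI1, CEBPA, HOXA9 and MYB, at 9.57 to 16.4). MPO (3.12 over 131 bp) and CSF3R (3.74 over 436 bp) had narrower peaks, and CD33 and LYZ had none. Of 8 genes of other lineages 3 had a peak, none of them 800 bp wide and none above 3.74 (CD3E). In fold enrichment MPO and CSF3R did not stand above CD3E.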

How the data were processed

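Peak lists of ChIP with Tn5 tagmentation were used. Per the processing notes, the authors worked with bcl2fastq 2.17, Trimmomatic 0.33, Bowtie 1.1.2, MACS2 2.1.0 and deepTools, and called each library separately. Thresholds and the use of inputs are not given in the sources used here. Fold enrichment, as deposited, divides pileup by background and is a ratio, at the summit for H3K4me3 and over the region for H3K27Ac. As a filter in 1 alternative, the −log10 q-value deposited by the authors was used. Their deposited score was not. For H3K4me3, fold values fitted (pileup + 1)/(background + 1) with 1 background per list and whole pileups, to within 0.01, for 100% of peaks, so that they hold no local correction. Read totals are not given, and 22 fragments is the median depth at a region's summit. The notes name hg38, but H3K27Ac coordinates are those of GRCh37.

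The members, gene lists and stretches were chosen with earlier results of these data known. Genes came from a RefSeq table of GRCh38.p14 with 19974 coding records on these chromosomes, 344 of them without a strand, for which both ends counted as starts, and 38511 noncoding or pseudogene records, 26847 with a strand. A noncoding start was the start of the record, a start in the promoter table, or a record without a strand lying wholly inside. For H3K27Ac, GENCODE version 44 on GRCh37 was joined by a unique symbol or Ensembl identifier, on the same chromosome and within 5 Mb. Named were the 12 widest and 12 highest regions, the 15 highest with a noncoding start, the 10 with the highest sgNpm1A peak, the 10 highest in coding genes, the 8 highest outside records, regions over listed genes, and, chosen after their values were seen, the 12 highest with a further coding start and host genes, groups and noncoding records with most regions. Scripts ran in Python 3.11.15 (numpy 2.4.6, pandas 2.3.3, statsmodels 0.14.6), and interval functions were tested on simulated data.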

Additional observations from a re-analysis of the deposited data

How the results depend on the processing

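Both the number of regions and most of the shares moved with the rule, and the share over noncoding records moved least often. With a minimum width of 600 bp there were 12956 regions, with 1000 bp 2939, with peaks within 200 bp merged 10553, without chromosomes 5, 8 and 17 2400, and without the 5 stretches 1284, an alternative chosen after seeing the data. The share with a sgNpm1A peak, 82.9%, was 77.2% at 600 bp, 85.0% at 1000 bp, 81.8% with no coding start within 2 kb, 81.0% with merging, 83.9% for a sgNeg fold enrichment of at least 4, 73.5% without chromosomes 5, 8 and 17 and 58.6% without the stretches. It was 66.4% if at least 50% of the region had to be covered, 66.1% with sgNpm1A peaks of a fold enrichment of at least 4, and 87.1% if any coding start of the promoter table within 5 kb excluded a region, also chosen after seeing the data. The share in coding genes, 53.1%, was 54.9% with 2 kb, 50.9% with 10 kb, 50.8% with either end of a record as a start, 49.97% with the promoter table, 61.4% without the 3 chromosomes and 62.8% without the stretches. The share over noncoding records was 16.6% without the 3 chromosomes. The share over noncoding starts, 1.95%, was 1.34% at 600 bp, 2.59% at 1000 bp, 2.71% without the 3 chromosomes, 4.05% without the stretches and 5.77% with a start within 1 kb. All other alternatives kept the shares within the interval of the value reported and the number within 1.5 times. By construction the number rises with a lower width limit, and falls with a higher one or where chromosomes or stretches are left out. For merging and for the shares the cause was not tested. No paired analysis was possible because each group had 1 library. A summit of 10 fragments is the least the sgNpm1A list shows.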
